A study of Homo sapiens with 6 samples.

Results

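The histone genes were examined in Capan1 cells, a well differentiated human pancreatic cancer line, grown for 10 days on a collagen and Matrigel gel. Capan1 cells grown over gels that held PS1, a pancreatic stellate cell line, gave 3 arrays, and Capan1 cells grown alone gave the other 3. From 24 hours on, gels stood on metal grids and took medium from beneath, and a laser cut the top cancer cell layer from frozen sections for RNA. Titles and source names separated the groups, although the exposure tag named PS1 on all 6 samples, so the grouping rests on the titles. No label said whether arrays of a group came from separate cultures, and the p-values then measure only the spread between these arrays, which may be technical.

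Of 47228 probes on the array, 94 were annotated to histone genes whose symbols begin with H1-, H2AC, H2BC, H3C or H4C, or to the named variant genes H2AX, H2AZ1, H2AZ2, H2AJ, MACROH2A1, H3-3A and H3-3B. A probe entered the tests when its deposited detection p was under 0.05 on at least 3 of the 6 arrays, whichever group they belonged to. That kept 45 histone probes for 37 named genes among 18165 tested probes, and left out 49 histone probes, of which 39 were detected on no array and 10 on 1 or 2 arrays. The 45 were 33 probes for replication-dependent histones, covering 29 named genes, and 12 probes for variant histones, covering 8 genes. H1-10, a linker histone gene that lies outside the histone clusters, was counted with the variants. One replication-dependent probe, ILMN_1881081, was annotated to both H3C11 and H3C6, and 5 genes had more than 1 tested probe.

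Histones are the proteins that DNA is wound around: H2A, H2B, H3 and H4 build the nucleosome core, and H1 binds the linker DNA between cores. The replication-dependent genes lie in clusters, are transcribed mainly in S phase, and most of their mRNAs end in a stem-loop in place of a poly(A) tail. Most variant genes lie outside the clusters, are expressed through the cell cycle and give polyadenylated mRNAs, while H2AX also makes a replication-linked mRNA with a stem-loop. The labels named the MessageAmp kit for preparing the labelled RNA, a method that primes on poly(A) tails, so the signals of the replication-dependent genes and of H2AX depend on how much of their RNA carried a tail. Copies of a histone type have nearly the same coding sequence, and which copy's RNA a probe read is therefore uncertain.

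With PS1, RNA signal was higher for 7 named replication-dependent histone genes of the H1, H2A and H2B types (H1-2, H2AC18, H2AC19, H2AC20, H2BC12, H2BC21 and H2BC5) and lower for H4C3, which encodes histone H4. Fold changes of the higher probes lay between 1.58 (H2BC5) and 2.22 (H2BC21), and H4C3 was 2.16-fold lower. In limma's moderated test, with p-values of every tested probe adjusted together by the Benjamini-Hochberg method, 8 of the 33 replication-dependent probes were higher and 1 was lower at an adjusted p under 0.05, and 0 of the 12 variant probes passed. Among all tested probes 2.01% were higher and 2.00% were lower with PS1, or 4.02% in either direction, against 27.3% of the replication-dependent probes. The median log2 change was 0.35 over the replication-dependent probes, -0.19 over the variant probes and -0.01 over all tested probes.

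Promoter windows of 5 of the 7 higher genes are shown because these genes moved together and include members of different clusters. Each window is the 250 bases before the RefSeq start on GRCh38.p14, written 5′ to 3′ on the gene's strand, and capitals mark matches of the CCAAT box, the TATA box and the octamer described after them, on either strand. In the H2BC12 window a TATA box match on each strand overlapped and they are printed as a single run of capitals. H2AC19 and H2BC21 are not printed, since a run of 249 of the 250 bases of H2AC19 is also in the H2AC18 window, and a run of 235 bases of H2BC21 is the opposite strand of the H2AC20 window.
H1-2, chr6:26056471-26056720, minus strand: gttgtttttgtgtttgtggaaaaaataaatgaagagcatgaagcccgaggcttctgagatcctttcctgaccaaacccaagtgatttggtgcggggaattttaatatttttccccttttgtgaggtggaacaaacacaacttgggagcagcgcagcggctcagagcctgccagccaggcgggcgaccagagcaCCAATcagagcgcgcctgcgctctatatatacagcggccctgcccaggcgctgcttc
H2AC18, chr1:149842751-149843000, minus strand: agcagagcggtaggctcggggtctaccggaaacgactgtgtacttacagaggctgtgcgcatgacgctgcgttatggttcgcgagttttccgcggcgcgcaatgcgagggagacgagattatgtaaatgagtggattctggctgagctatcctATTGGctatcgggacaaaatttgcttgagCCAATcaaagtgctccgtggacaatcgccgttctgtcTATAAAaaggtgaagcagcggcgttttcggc
H2AC20, chr1:149886668-149886917, plus strand: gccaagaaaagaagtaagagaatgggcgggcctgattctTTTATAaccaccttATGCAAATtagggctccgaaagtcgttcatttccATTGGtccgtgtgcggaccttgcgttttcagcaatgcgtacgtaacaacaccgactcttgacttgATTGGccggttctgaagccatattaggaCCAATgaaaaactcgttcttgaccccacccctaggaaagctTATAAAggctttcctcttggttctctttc
H2BC12, chr6:27146859-27147108, minus strand: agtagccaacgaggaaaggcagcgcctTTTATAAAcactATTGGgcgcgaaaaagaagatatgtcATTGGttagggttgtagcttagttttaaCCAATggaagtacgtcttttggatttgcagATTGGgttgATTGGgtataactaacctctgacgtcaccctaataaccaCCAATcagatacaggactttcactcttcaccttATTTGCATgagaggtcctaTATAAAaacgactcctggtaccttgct
H2BC5, chr6:26157871-26158120, plus strand: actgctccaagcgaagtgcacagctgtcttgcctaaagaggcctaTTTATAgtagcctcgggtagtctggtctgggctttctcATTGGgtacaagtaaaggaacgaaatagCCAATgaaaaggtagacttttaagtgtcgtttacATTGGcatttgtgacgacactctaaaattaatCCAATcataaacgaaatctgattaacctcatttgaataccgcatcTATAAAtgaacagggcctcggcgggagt

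RefSeq windows were matched for 36 of the 37 named tested genes, and the gene without a window was H4C3, the one that was lower. The CCAAT box was searched as the letters CCAAT, read as ATTGG on the other strand. It was found in 22 of 28 replication-dependent windows and in 6 of 8 variant windows, and 33.0% of all 27305 promoters held it. The TATA box, searched as TATAAA and read as TTTATA on the other strand, was in 19 of 28 replication-dependent and 4 of 8 variant windows, and in 11.1% of all promoters. The octamer ATTTGCAT, read as ATGCAAAT on the other strand and known from H2B promoters as a site for the factor POU2F1, was in 13 of 28 replication-dependent and 1 of 8 variant windows, and in 1.66% of all promoters; the H2B windows held it in 6 of 7 genes. Among the 7 genes with a higher probe, 7 windows held the CCAAT box, 6 the TATA box and 3 held the octamer, against 15, 13 and 10 of the 21 other replication-dependent windows. These windows are not all separate sequences: the H2AC18 and H2AC19 windows, and those of H2AC20 and H2BC21, share most of their bases. The same matches were therefore counted for both genes, as they also are for other pairs of neighbouring genes that face away from each other. These are matches of letters, not measured binding. H2AC20 and H2BC21 face away from each other with starts 236 bases apart, and both were higher. The other 2 tested pairs of this kind, H2AC6 with H2BC4 and H2AC11 with H2BC11, had no higher member. Probes of H2BC4, H2AC11 and H2BC11 were near background, with mean log2 signals of 5.69, 5.88 and 5.89 with PS1 and 5.24, 6.03 and 6.31 alone. H2AC6 passed as higher without replicate 3 with PS1 (log2 change 0.84, limma adjusted p = 0.0315), a fit in which 15.2% of all tested probes passed. The pairs therefore cannot be compared by their calls.

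All values given from here on are log2 normalised signals of a probe, and changes are the mean with PS1 minus the mean alone, with limma's standard error (SE). Levels of different probes cannot be compared with each other.

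H1-2 encodes a linker histone of the somatic type. Its probe gave 10.76, 10.79 and 10.06 with PS1, against 9.61, 9.25 and 9.58 alone. The lowest array with PS1 stood above the highest array alone. Means were 10.54 ± 0.42 with PS1 and 9.48 ± 0.20 alone (SD, n = 3 each), a log2 change of 1.06 ± 0.21 (2.08-fold, limma adjusted p = 0.0155). H1-1, the other linker gene tested among the replication-dependent ones, was dim, detected on 2 arrays with PS1 and on 1 alone, and its log2 change was 0.08 ± 0.28.

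Among the H2A genes, 4 of 10 probes were higher and 0 lower, where 2.01% of all tested probes were higher and 2.00% lower. The 4 higher probes read 3 genes of the chromosome 1 cluster. H2AC18 and H2AC19 are a duplicated pair of H2A genes, so their probes may read the same RNA. The H2AC18 probe ILMN_2144426 gave 9.85, 10.17 and 9.64 with PS1, against 8.92, 8.32 and 9.04 alone (log2 change 1.12 ± 0.21, 2.18-fold, limma adjusted p = 0.0136). The other H2AC18 probe, ILMN_1659047, gave 10.26, 10.56 and 9.85 with PS1, against 9.12, 9.20 and 9.53 alone (0.94 ± 0.20, 1.92-fold, limma adjusted p = 0.0208). On both probes the groups did not overlap, and replicate 3 with PS1 was the array with PS1 closest to the arrays alone.

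The H2AC19 probe gave 10.47, 10.48 and 10.09 with PS1, against 9.29, 8.93 and 9.59 alone (log2 change 1.08 ± 0.19, 2.11-fold, limma adjusted p = 0.00986). H2AC20, another H2A gene of this cluster, gave 9.57, 9.72 and 9.54 with PS1, against 8.78, 8.23 and 8.76 alone. The arrays with PS1 were close to each other here, with means of 9.61 ± 0.10 with PS1 and 8.59 ± 0.31 alone (SD, n = 3 each). The log2 change of H2AC20 was 1.02 ± 0.18 (2.03-fold, limma adjusted p = 0.0101). The 6 other H2A probes had log2 changes between -0.15 (H2AC11) and 0.42 (H2AC8) and did not pass. H2AC25 was the only one of these 6 whose groups did not overlap, with 8.89, 9.12 and 8.85 with PS1 against 8.49, 8.65 and 8.81 alone (0.30 ± 0.17, limma adjusted p = 0.376).

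Among the H2B genes, 3 of 9 probes were higher and 0 lower, where 2.01% of all tested probes were higher and 2.00% lower. H2BC21, the H2B gene that faces away from H2AC20, gave 9.63, 9.78 and 8.87 with PS1, against 8.30, 8.30 and 8.22 alone. The arrays alone lay within a narrow range and all below those with PS1, and the log2 change was 1.15 ± 0.22 (2.22-fold, limma adjusted p = 0.0148). H2BC12 gave 12.35, 12.49 and 12.14 with PS1, against 11.61, 11.57 and 11.76 alone, on probe ILMN_1796179 (0.68 ± 0.14, 1.6-fold, limma adjusted p = 0.0213). H2BC5 gave 10.80, 10.80 and 10.35 with PS1, against 9.94, 10.02 and 10.01 alone, on probe ILMN_1651496 (0.66 ± 0.16, 1.58-fold, limma adjusted p = 0.0408).

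Both H2BC12 and H2BC5 had a second tested probe that did not pass. The second H2BC12 probe, ILMN_1813314, gave 9.87, 9.88 and 8.88 with PS1, against 9.13, 8.96 and 8.83 alone (log2 change 0.57 ± 0.24, limma adjusted p = 0.239). The second H2BC5 probe, ILMN_1758623, gave 9.68, 9.66 and 8.36 with PS1, against 8.44, 8.98 and 9.01 alone (0.42 ± 0.31, limma adjusted p = 0.521). On both, replicates 1 and 2 with PS1 were above every array alone and replicate 3 with PS1 was not. The remaining H2B probes, for H2BC4, H2BC9, H2BC11 and H2BC18, had log2 changes between -0.43 (H2BC11) and 0.45 (H2BC4).

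**Figure D1:**
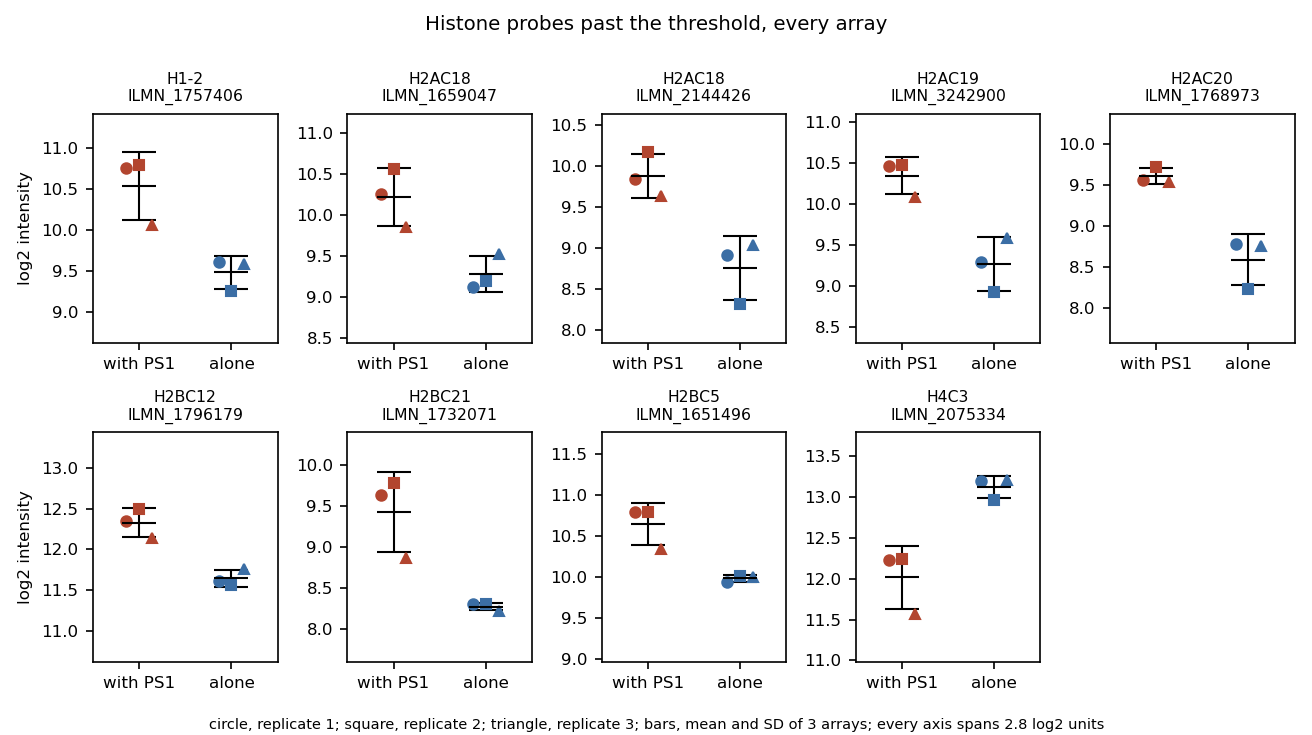
Log2 normalised signal of the 9 histone probes past an adjusted p of 0.05, a panel per probe, with the 3 arrays with PS1 on the left and the 3 arrays alone on the right; bars are means with SD. In every panel the groups do not overlap, and H4C3 is the only panel in which the arrays with PS1 are the lower ones.

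None of the 5 probes for replication-dependent H3 genes passed at an adjusted p under 0.05 in limma's test. An unadjusted p under 0.05 was found for 0 of the 5, and for 18.3% of all tested probes. Their log2 changes lay between -0.44 (H3C13) and 0.35 (the probe shared by H3C11 and H3C6), with a median of 0.32. The shared probe gave 7.54, 7.56 and 5.80 with PS1, against 6.39, 7.02 and 6.45 alone, so replicate 3 with PS1 was the lowest of all 6 arrays. The other H3 probes were near background, with means from 5.22 to 6.04 with PS1 and from 5.34 to 5.71 alone. Their lack of calls therefore cannot be read as a difference between histone types.

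The H4 probes went in different directions. H4C3 gave 12.23, 12.24 and 11.57 with PS1, against 13.19, 12.96 and 13.20 alone. Every array with PS1 was below every array alone, with means of 12.01 ± 0.38 with PS1 and 13.12 ± 0.14 alone (SD, n = 3 each), a log2 change of -1.11 ± 0.18 (2.16-fold lower, limma adjusted p = 0.00685). Of the 9 called probes it was the 1 probe whose groups were also apart in the deposited signals before normalisation, at 3250, 5640 and 2420 with PS1 against 12500, 7810 and 10000 alone. Mean deposited signals over whole arrays were 273, 449 and 335 with PS1 and 494, 384 and 414 alone. Deposited signals thus leaned towards lower values with PS1, against separation of the higher probes. With array brightness added to the fit as a covariate, H4C3 was not called. H4C8 gave 7.04, 6.97 and 6.45 with PS1, against 5.95, 5.86 and 6.21 alone, and did not pass (0.81 ± 0.24, limma adjusted p = 0.0817). H4C14 and H4C15, a duplicated pair in the chromosome 1 cluster, had log2 changes of 0.38 ± 0.21 and 0.48 ± 0.25 (limma adjusted p = 0.371 and 0.337), and the 3 remaining H4 probes lay between -0.18 (H4C12) and 0.16 (H4C11).

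**Figure D2:**
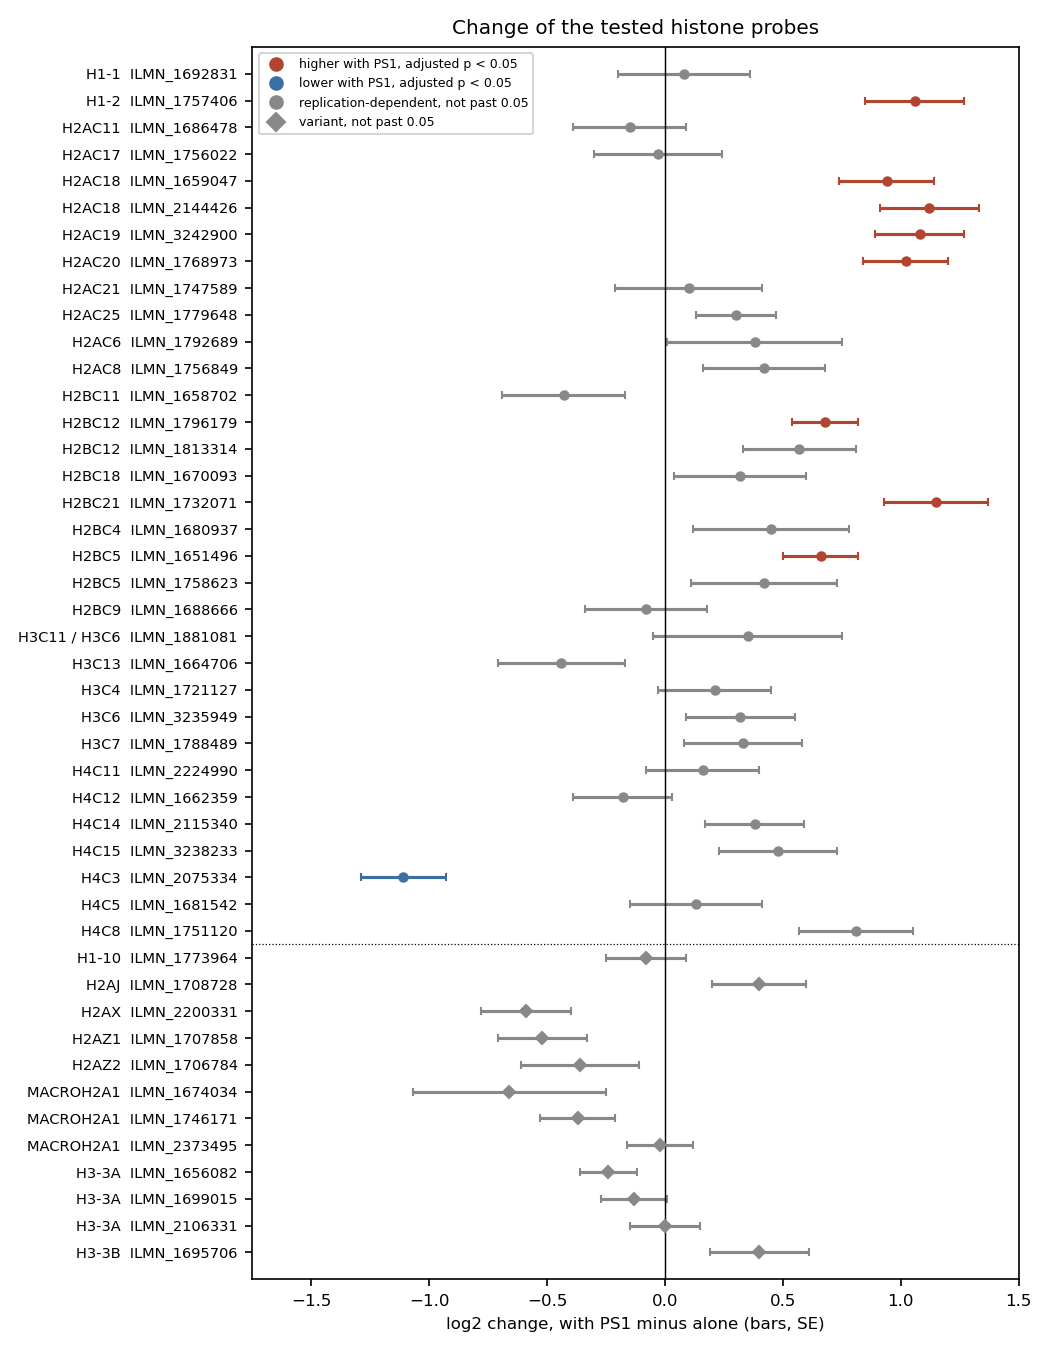
Log2 change, with PS1 minus alone, of the 45 tested histone probes, with SE bars; probes above the dotted line are replication-dependent (circles) and those below it are variants (diamonds), and colour marks an adjusted p under 0.05. Of the replication-dependent probes 26 lie above 0 and 7 below it, and of the variant probes 3 lie above 0 and 9 below it.

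Grouped by place, 5 of 10 probes of the chromosome 1 cluster, counted without the separate gene H2AC25, were higher and 0 lower (median log2 change 0.71). In the chromosome 6 clusters 3 of 21 probes were higher and 1 was lower (median 0.32). Among all tested probes 2.01% were higher and 2.00% lower. The 5 higher chromosome 1 probes include both H2AC18 probes and the H2AC19 probe, which may read the same RNA. Both places also held dim probes, such as H2AC21 on chromosome 1 and H1-1 on chromosome 6. The 24 replication-dependent probes that did not pass had a median of 0.31, with 18 above 0 and 6 below. Groups did not overlap on 12 replication-dependent probes with PS1 above and on 1 with PS1 below, where 11.8% of all tested probes had PS1 above and 11.8% had PS1 below.

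Among the variant histones 3 probes lay above 0 and 9 below, and none of the 12 passed in limma's test, the smallest adjusted p being 0.12. An unadjusted p under 0.05 was found for 3 of the 12, and for 18.3% of all tested probes. H2AX, the H2A variant that is phosphorylated at DNA breaks, gave 7.14, 6.88 and 7.25 with PS1, against 7.68, 7.56 and 7.79 alone (log2 change -0.59 ± 0.19, limma adjusted p = 0.12). H2AZ1, a variant placed at promoters, gave 12.22, 11.98 and 12.85 with PS1, against 12.80, 12.89 and 12.93 alone (-0.52 ± 0.19, limma adjusted p = 0.17). The arrays with PS1 were all below those alone for H2AX but overlapped them for H2AZ1, through replicate 3. The H2AZ2 log2 change was -0.36 ± 0.25.

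MACROH2A1 encodes an H2A variant with a large extra domain, found on silent chromatin, and its 3 probes disagreed in size. ILMN_1746171 gave 9.08, 9.09 and 9.04 with PS1, against 9.53, 9.24 and 9.57 alone (log2 change -0.37 ± 0.16, limma adjusted p = 0.223). The others gave -0.66 ± 0.41 (ILMN_1674034), where replicate 3 with PS1 was the lowest array at 4.77 and without which the log2 change was -0.07, and -0.02 ± 0.14 (ILMN_2373495). H3-3A and H3-3B encode the same replacement H3 protein, which can be put into chromatin outside S phase as well as within it. The H3-3A probe ILMN_1656082 gave 13.38, 13.34 and 13.30 with PS1, against 13.63, 13.56 and 13.56 alone (-0.24 ± 0.12, limma adjusted p = 0.326), and its other probes gave -0.13 ± 0.14 and 0.00 ± 0.15.

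H3-3B gave 8.40, 8.73 and 9.16 with PS1, against 8.15, 8.35 and 8.59 alone, with overlapping groups (log2 change 0.40 ± 0.21, limma adjusted p = 0.354). H2AJ, an H2A variant gene outside the clusters, gave between 10.43 (replicate 3) and 11.08 with PS1, against 10.62, 10.09 and 10.59 alone, with overlapping groups (0.40 ± 0.20, limma adjusted p = 0.321). Among the variants with a single tested probe H1-10 lay closest to 0, at -0.08 ± 0.17.

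**Figure D3:**
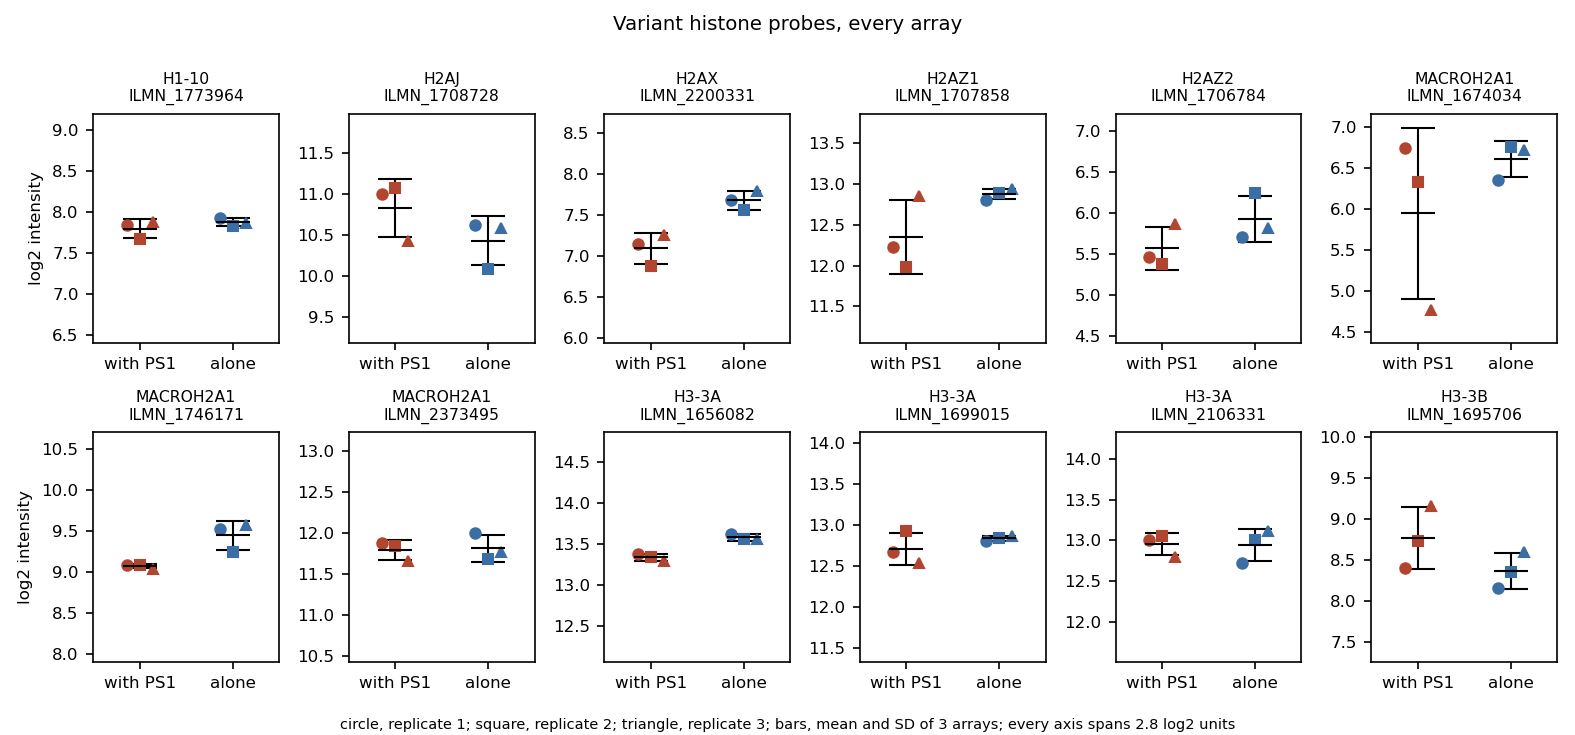
Log2 normalised signal of the 12 variant histone probes, a panel per probe, with the 3 arrays with PS1 on the left and the 3 arrays alone on the right; bars are means with SD and every panel spans the same number of log2 units. The groups do not overlap for H2AX, for the MACROH2A1 probe ILMN_1746171 and for the H3-3A probe ILMN_1656082, all with PS1 below. Of all tested probes, 11.8% had groups apart with PS1 below and 23.6% in either direction. No panel passed an adjusted p of 0.05.

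Replicate 3 with PS1 stood apart from the other arrays. Its 28S ribosomal RNA probe ILMN_3251587 gave 12.85, against 7.20 and 5.97 for the other arrays with PS1 and 8.32, 6.50 and 7.66 alone. It had the fewest detected probes, 16325, where the others had between 17785 and 19602. On all 8 higher histone probes it was the lowest array with PS1, and on H4C3 it was also the lowest. Its part in the results was not tested, but leaving it out gave 15 called replication-dependent probes of 33, 14 higher and 1 lower. Calls over all tested probes also grew, to 2758 (15.2%) without this array.

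Without replicate 3 with PS1, the second H2BC12 probe (log2 change 0.90, limma adjusted p = 0.000754), the second H2BC5 probe (0.86, limma adjusted p = 0.00374), H4C8 (1.00, limma adjusted p = 0.00505), H2AC6 (0.84, limma adjusted p = 0.0315), H4C15 (0.70, limma adjusted p = 0.0377) and the probe shared by H3C11 and H3C6 (0.93, limma adjusted p = 0.00895) also passed. Among the 12 variant probes 3 passed, where 15.2% of all tested probes did in the same fit: H2AJ as higher (0.61, limma adjusted p = 0.0207), and H2AX (-0.67, limma adjusted p = 0.0234) and H2AZ1 (-0.77, limma adjusted p = 0.00136) as lower. Leaving out any other array cut the replication-dependent calls: 1 was left without replicate 1 with PS1 and 3 without replicate 2 with PS1, and 4, 1 and 3 without replicates 1, 2 and 3 alone. Calls over all tested probes also fell in these fits, to 189 (1.04%) and 299 (1.65%) without replicates 1 and 2 with PS1, and to 277 (1.52%), 185 (1.02%) and 152 (0.837%) without replicates 1, 2 and 3 alone. H4C3 was lower at an adjusted p under 0.05 whichever array was left out, except replicate 3 alone (-1.07, limma adjusted p = 0.0577). H2AC20 lost its call without replicate 1 with PS1 (1.04, limma adjusted p = 0.0517) and without replicate 2 alone (0.84, limma adjusted p = 0.0509).

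**Figure D4:**
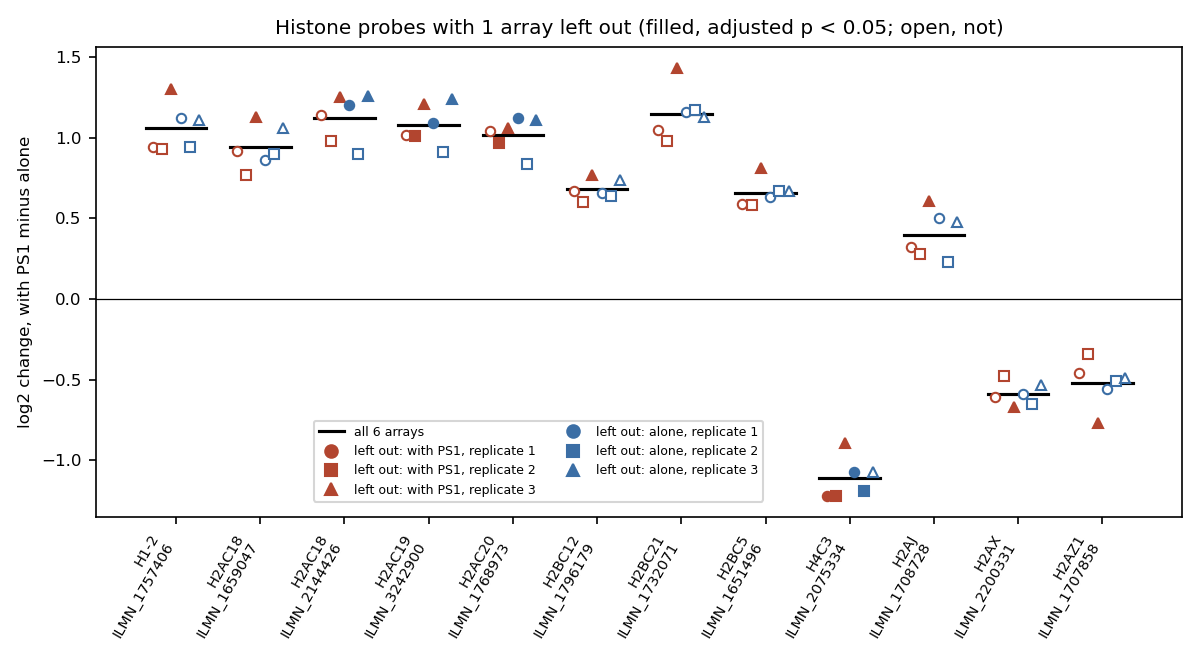
Log2 change, with PS1 minus alone, of the 9 called histone probes and of H2AJ, H2AX and H2AZ1, with all 6 arrays (bar) and with each array left out (red, an array with PS1; blue, an array alone); filled symbols have an adjusted p under 0.05. No symbol crosses 0, and only the removal of replicate 3 with PS1 leaves all 12 filled.

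Genes that make or handle histones were described from lists of 16 genes for transcription and processing of histone mRNA and 26 genes for chaperones and deposition. Of the first, 13 were tested and 0 passed in limma's test, with a median log2 change of 0.01. An unadjusted p under 0.05 was found for 2 of the 13, and for 18.3% of all tested probes. NPAT, the coactivator of histone gene transcription, gave -0.65 ± 0.30 (limma adjusted p = 0.267), and CPSF2, a subunit of the cleavage complex, gave 0.55 ± 0.20 (limma adjusted p = 0.173). LSM10, of the U7 particle that cuts histone mRNA, gave -0.31 ± 0.17, CPSF3, the cleavage enzyme, gave -0.25 ± 0.17, and COIL and UPF1 gave -0.00 ± 0.15 and 0.04 ± 0.19. SLBP, the protein that binds the histone stem-loop and which was singled out after its values were seen, gave 7.48, 7.48 and 8.63 with PS1, against 8.14, 7.90 and 7.99 alone (-0.15 ± 0.28, limma adjusted p = 0.831). Without replicate 3 with PS1, SLBP was lower (-0.53, limma adjusted p = 0.049).

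Of the chaperone list, 22 were tested, and 0 were higher and 2 lower (9.09% called, against 4.02% of all tested probes). Of the 22, 3 lay above 0 and 19 below 0, with a median log2 change of -0.37. HJURP, the chaperone that places the centromeric H3, gave 7.85, 7.51 and 8.58 with PS1, against 9.48, 9.44 and 9.53 alone (-1.50 ± 0.24, 2.83-fold lower, limma adjusted p = 0.00554). CENPA, that centromeric H3, is a histone outside the named set and gave 7.88, 7.31 and 8.69 with PS1, against 9.58, 9.28 and 9.16 alone (-1.38 ± 0.28, 2.6-fold lower, limma adjusted p = 0.0201). For both, all arrays with PS1 lay below those alone, with replicate 3 with PS1 the closest to them. NAP1L1, a chaperone of H2A and H2B, gave 9.27, 9.22 and 9.44 with PS1, against 9.77, 10.24 and 9.91 alone (-0.66 ± 0.17, 1.58-fold lower, limma adjusted p = 0.0465). NAP1L4, a related chaperone, gave -0.47 ± 0.14 (limma adjusted p = 0.0963) and SUPT16H, a subunit of the FACT complex, gave -0.42 ± 0.14 (limma adjusted p = 0.122). DNAJC9 and SET, both histone chaperones, gave -0.46 ± 0.18 and -0.33 ± 0.14, and neither passed. Outside the named set, MACROH2A2 and H3-5 gave -0.24 ± 0.14 and -0.41 ± 0.15, and neither passed. NAP1L1 kept its call without replicate 3 with PS1 (-0.73, limma adjusted p = 0.00595) and lost it whichever other array was left out; CENPA did likewise (-1.74, limma adjusted p = 1.6e-05), and HJURP passed whichever array was left out.

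Genes of the cell cycle moved beside these. The G2 and M phase list had 32 tested genes, of which 26 were lower and 0 higher with PS1 (median log2 change -1.22). The DNA replication list had 39, of which 4 were lower and 0 higher (median -0.51). Called genes made up 81.2% of the G2 and M phase list and 10.3% of the DNA replication list, against 4.02% of all tested probes. Averaged over each list after centring every probe on its mean, replicates 1, 2 and 3 with PS1 gave -0.78, -1.08 and 0.00 for G2 and M phase, against 0.53, 0.75 and 0.58 alone. For the replication-dependent histones the same averages were 0.25, 0.31 and -0.04 with PS1, against -0.19, -0.25 and -0.08 alone. In both, replicate 3 with PS1 lay between the other arrays with PS1 and the arrays alone. Fewer cells of a kind and less RNA per cell cannot be told apart in these samples.

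Markers of the cultured cells were read in the same arrays. Of 10 duct epithelium markers 9 were detected on all 6 arrays and tested, with 1 higher and 0 lower (median log2 change 0.22). Over all tested probes the shares were 2.01% higher and 2.00% lower. Their summed linear signal was between 37000 and 43200 with PS1 and between 31200 and 36900 alone. Of 19 stellate cell and fibroblast markers 8 were detected on no array (COL1A2, LUM, PDGFRA, PDGFRB, FAP, THY1, FN1 and DES). By the probe detected most often in each group, TAGLN was detected on 3 arrays with PS1 and 0 alone, DCN on 2 and 0, and COL6A3 on 2 and 1. COL1A1, COL6A1 and ACTA2 were detected on 2 arrays with PS1 and 3 alone, and COL3A1, SPARC and POSTN on 0 and 1. VIM was detected on 3 and 3, and COL5A1 on 1 and 1. The tested stellate cell and fibroblast markers numbered 6, with 0 higher and 1 lower, against 2.01% and 2.00% of all tested probes. Their log2 changes lay between -1.31 and 0.87. The summed linear signal of those 6 was between 264 and 416 with PS1 and between 377 and 434 alone. The part of either list in the histone results was not tested.

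**Figure D5:**
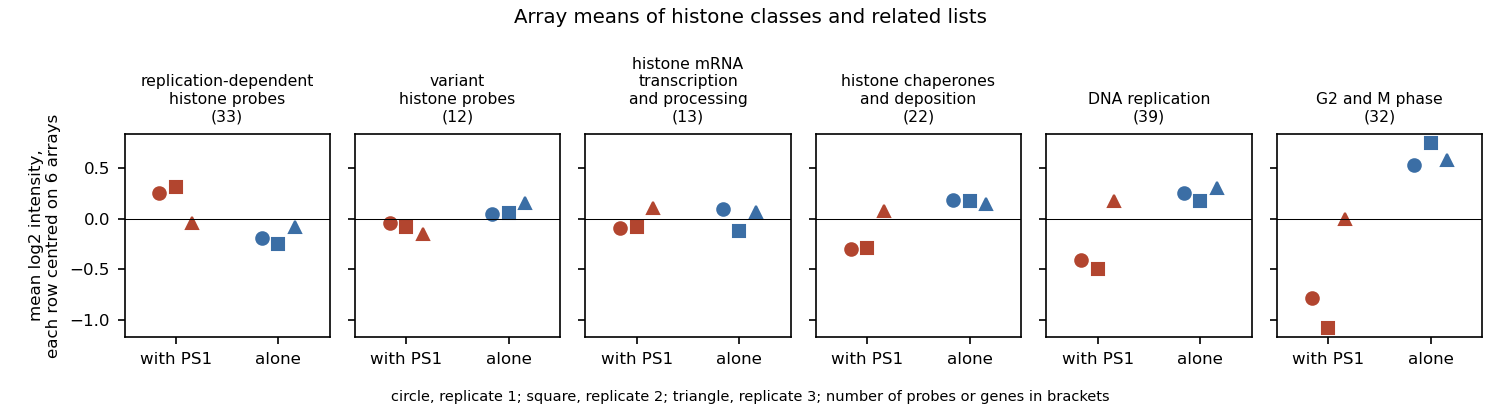
Mean centred log2 signal of each gene list on each array, with the arrays with PS1 left of the arrays alone; each point is 1 array. Replication-dependent histones lie higher with PS1 on replicates 1 and 2, whereas chaperones, DNA replication and G2 and M phase genes lie lower there. Variant histones lie lower on all 3 arrays with PS1, and lowest on replicate 3. The groups overlap for the transcription and processing list.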

How the data were processed

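RNA of laser-captured Capan1 layers was read on Illumina bead arrays with biotin-labelled RNA, per the labels' protocols; the submitters' processing notes name BeadStudio and GenomeStudio 2011.1. The deposited table held the authors' non-normalised signal per probe, in intensity units, and a detection p-value per probe and array. The authors' normalised value table, deposited separately, was put on the log2 scale and used as an alternative. Symbols came from RefSeq by the Entrez gene ID of each probe's annotation, or from that annotation where RefSeq gave none.

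Signals were corrected with limma 3.58.1 (R 4.3.3) neqc (normexp from detection p-values, offset 16, quantile normalisation, log2). The 18165 probes with detection p under 0.05 on at least 3 arrays were fitted by lmFit, eBayes was run with its intensity trend, and p-values were Benjamini-Hochberg adjusted over all of them, with 0.05 as threshold. The fit was tested on simulated data. The number of arrays, 3 in each group, limits the precision. Mean signals per array were between 273 and 494.

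Named genes were every histone probe past the threshold, the 8 of smallest p and the 8 of highest mean in each class, the genes named singly, genes with over 1 tested probe, and, from each supply list, those past the threshold, the 4 of smallest p and the 4 of highest mean. The members and lists were chosen with earlier results of these data known. Alternatives changed the background correction, normalisation, probe filter, variance model and the arrays used.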

Additional observations from a re-analysis of the deposited data

How the results depend on the processing

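Replication-dependent histone calls numbered 9, with 5 when no intensity trend was fitted, 15 under array weights, 2 with array brightness as a covariate (H2AC18 and H2AC20), and 1 to 15 with 1 array left out. Variant calls numbered 0, with 4 under array weights (H2AJ higher; H2AX, H2AZ1 and a MACROH2A1 probe lower) and 0 to 3 with 1 array left out. Calls in the supply lists numbered 2, with 11 under array weights, 1 to 12 with 1 array left out, and 1 without the probe filter, without the trend, in the authors' table, with the replicate block and with brightness. Calls over all probes numbered 730, with 392, 3357 and 163 under no trend, array weights and brightness, and 152 (without replicate 3 alone) to 2758 (without replicate 3 with PS1) with 1 array left out. The causes were not tested. The replicate block gave 783 calls. Same-numbered arrays did not deviate together (correlations -0.0239, -0.0314 and 0.0799). With 3 arrays in each group, these correlations cannot settle whether the numbers pair the samples. No called histone probe changed direction. Small changes that turned sign were H1-1 (-0.17 under array weights, -0.17 to 0.26 leaving out arrays), H2AC17 (0.04 with loess, 0.17 with median scaling and with array weights, -0.18 to 0.19), H2AC21 (-0.05 to 0.37), H2BC9 (0.10 with median scaling, 0.15 with brightness, -0.20 to 0.11), H4C5 (-0.05 under array weights, -0.09 to 0.25), MACROH2A1 ILMN_2373495 (0.03 under array weights, 0.00 with brightness, -0.09 to 0.07), H3-3A ILMN_2106331 (-0.03 with brightness, -0.11 to 0.09), SLBP (-0.53 to 0.04), UPF1 (-0.09 to 0.12) and COIL (0.00 with loess, -0.08 to 0.07). Probes near background, such as those of the H3 genes, limit what can be read.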
